A study of Mus musculus with 6 samples.

Results

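The genes described here are 40 components of the striated muscle contractile apparatus, taken by symbol from a list of sarcomere, calcium release, energy supply and muscle end-plate genes, with no expression value in the rule. All 40 were found among the 32286 features counted, and each was followed in all 6 single-cell libraries. The libraries came from Digits in a Dish (DID) cultures, in which distal forelimb mesenchyme of wild-type CD-1 mouse embryos at E11.5 was dissected, pooled over embryos, dissociated and plated so that it could reassemble. DID cultures were harvested at Day 2, Day 7 and Day 10, with 2 independent cultures per day, A and B, each giving 1 10x Genomics 3′ library, and no allele or agent differed between the days. Each value of a day therefore rests on 2 libraries. A p-value measures the spread between such pairs of cultures, and an exact permutation test of 2 libraries against 2 could not give a two-sided p below 0.333.

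In a striated muscle fibre, thick filaments of myosin slide along thin filaments of actin, which are held in register by titin and nebulin and anchored at the Z-disc. Calcium released through the ryanodine receptor, after the end-plate has been depolarised through acetylcholine receptors and the voltage sensor has moved, binds troponin and frees actin for myosin. In the mouse limb, muscle precursors migrate in from the somites, are marked by *Myod1* and *Myf5*, withdraw from the cycle with *Myog*, fuse through Mymk and Mymx, and build their first sarcomeres with embryonic and cardiac-type isoforms before later forms take over.

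Promoter sequences are shown for the 3 members around which the results turn, *Actc1* and *Acta1*, the cardiac and skeletal alpha-actins, and *Ldb3*, a Z-disc protein, because all 3 hold a CArG box, the binding motif of serum response factor. Each line gives the 250 bases before the RefSeq transcription start on the minus strand, 5′ to 3′, with the CArG box in capitals. The window of *Actc1* is chr2:114052876-114053125, that of *Acta1* chr8:123894776-123895025 and that of *Ldb3* chr14:34588682-34588931, all on GRCm38.p6.
*Actc1*: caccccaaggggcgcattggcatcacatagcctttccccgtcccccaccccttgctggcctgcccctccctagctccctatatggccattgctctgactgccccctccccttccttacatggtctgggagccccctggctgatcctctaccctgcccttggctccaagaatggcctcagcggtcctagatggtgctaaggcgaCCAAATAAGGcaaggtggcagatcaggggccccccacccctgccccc
*Acta1*: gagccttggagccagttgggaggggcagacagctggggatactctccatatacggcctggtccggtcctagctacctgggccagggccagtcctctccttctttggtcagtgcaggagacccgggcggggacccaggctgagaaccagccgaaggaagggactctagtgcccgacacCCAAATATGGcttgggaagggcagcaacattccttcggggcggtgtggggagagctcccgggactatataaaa
*Ldb3*: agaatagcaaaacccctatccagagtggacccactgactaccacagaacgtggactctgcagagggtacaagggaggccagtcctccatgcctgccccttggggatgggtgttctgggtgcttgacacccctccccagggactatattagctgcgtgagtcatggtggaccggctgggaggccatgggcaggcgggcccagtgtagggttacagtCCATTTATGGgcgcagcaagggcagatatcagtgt
The box began 47 bases before the start in *Actc1*, 73 in *Acta1* and 35 in *Ldb3*. RefSeq windows of 300 bases, 250 before and 50 after a start, were matched for 32 of the 40 members, with 39 starts. A CArG box on either strand lay in 5 of those 39 windows, of *Acta1*, *Actc1*, *Ldb3* and *Myl3*, and in 1.63% of 32851 windows of all genes. A MEF2 box lay in 5 windows, of *Casq2*, *Myh1*, *Myh8*, *Myoz2* and *Ttn*, and in 3.19% of all windows. The E-box letters CANNTG occurred in 33 of the 39 windows and in 72.3% of all, and the form CAGCTG, itself a CANNTG, in 19 and in 16.3%. TATAAA occurred in 10 and in 13.6%. *Chrnd*, *Tcap*, *Sln*, *Cacng1*, *Tnni2*, *Actn3*, *Neb* and *Tnnt3* were not matched. A match of letters is a description and not a bound site.

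After the filter of cells that the study states, 72099 cells remained, from 9448 to 16486 per library, with 178022112 to 260245417 unique molecular identifiers (UMIs, counted transcript molecules) per library. The libraries differed in depth, with a median of 3871 UMIs per cell in Day 2 B against 18587 in Day 2 A, and 24197 and 22128 at Day 10. Between any 2 libraries 24 to 67 cell barcodes were shared, none of them in cells rich in the members. Of 6 cardiac muscle markers, 5 were under 1 CPM (UMIs per 1000000 UMIs) in every library, the exception being *Tbx5*, which is also a forelimb gene. The summed level of 6 smooth muscle markers lay between 2569 and 4331 CPM in every library. Most of it came from *Acta2* and *Tagln*, and *Myh11* lay between 2.13 and 4.20 CPM. Levels below are CPM of all UMIs in the cells named, and since one 3′ end is counted per transcript they are compared between libraries and not between genes. Of the members, 19 overlap a gene on the other strand and *Casq2* overlaps others on its own strand, and reads shared with such genes could not be told apart here.

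Summed over the 40 genes, the level in whole cultures was 1186 and 917 CPM at Day 2, 309 and 122 CPM at Day 7, and 61.1 and 97.4 CPM at Day 10 (replicates A and B). The days did not overlap, and as a ratio the pair of Day 7 cultures lay further apart than the pairs at Day 2 and Day 10. By edgeR's quasi-likelihood test on the library sums, adjusted over all genes by Benjamini-Hochberg, 27 members fell and 2 rose from Day 2 to Day 7, where 34.6% of all genes were called lower and 35.7% higher (70.3% in either direction). From Day 2 to Day 10, 37 fell and 2 rose, against 38.2% and 39% of all genes (77.3% in all), and the members' median log2 change was -4.07 against 0.0013 over all genes. From Day 7 to Day 10, 30 fell and 2 rose, against 25.9% and 26.3% of all genes (52.2% in all). That last count of 32 went down to 17 without Day 7 A and to 18 without Day 10 A. The cell filter bears on these levels, since it drops barcodes with many genes that held many member UMIs. With every deposited barcode the summed level was 1205 and 848 CPM at Day 2, then 384 and 153 CPM at Day 7, with 132 and 140 CPM by Day 10, so that Day 10 lay close below Day 7 B. Then 35 members fell and 2 rose from Day 2 to Day 10, and 23 fell and 1 rose from Day 7 to Day 10. The median log2 change over the whole span was -2.65 in place of -4.07, the change was smaller for 37 of the 40, and *Acta1* and *Ckm* lost the call. In a sum over a whole culture, fewer muscle cells and less RNA per muscle cell cannot be told apart.

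**Figure D1:**
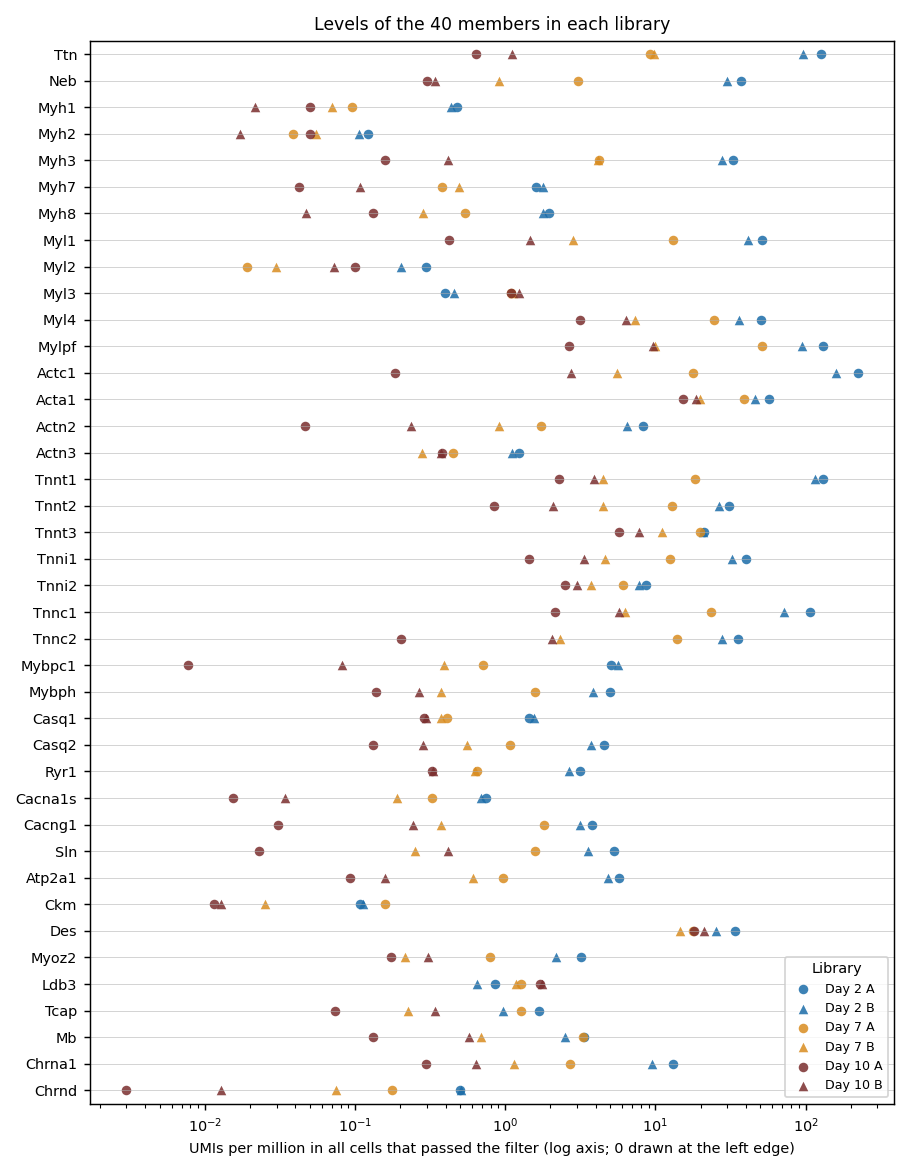
Level of each of the 40 members in whole cultures, in CPM on a log axis, 1 point per library coloured by day with the replicates as separate shapes. Most members step down from Day 2 to Day 10, while *Ldb3*, *Myl3*, *Des* and *Acta1* do not follow the steep fall of *Actc1* or *Ttn*.

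Among the thick filament genes, *Myh3*, the embryonic myosin heavy chain (ENSMUSG00000020908, chr11:67078300-67102291 on GRCm38), stood at 32.9 and 27.5 CPM at Day 2, 4.23 and 4.17 CPM at Day 7, and 0.158 and 0.416 CPM at Day 10. Its fall was large in each step, with a log2 change of -2.57 ± 0.18 (standard error) to Day 7 and -6.49 ± 0.25 over the whole span. With every barcode *Myh3* was at 1.10 and 1.42 CPM at Day 10, and the latter change was -4.32 ± 0.21. The perinatal heavy chain *Myh8* was at 1.97 and 1.78 CPM at Day 2 and at 0.131 and 0.0472 CPM at Day 10, a log2 change of -4.10 ± 0.40. *Myh7*, the slow and cardiac beta heavy chain, went from 1.61 and 1.78 CPM to 0.0423 and 0.107 CPM (-4.26 ± 0.32). With every barcode *Myh7* was at 0.213 and 0.349 CPM at Day 10 (-2.54 ± 0.22). The adult fast chains stayed low throughout. *Myh1* never passed 0.477 CPM and *Myh2* never passed 0.122 CPM, and both were called lower at Day 10 than at Day 2. The thick filament binding proteins *Mybpc1* and *Mybph* also fell, *Mybpc1* from 5.04 and 5.59 CPM to 0.0077 and 0.0814 CPM. With every barcode *Mybpc1* was at 0.0902 and 0.205 CPM at Day 10.

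The myosin light chains divided in their course. *Mylpf*, the fast regulatory light chain, was at 130 and 94.6 CPM at Day 2, at 50.9 and 9.88 CPM at Day 7 and at 2.64 and 9.65 CPM at Day 10. Its fall to Day 7 missed the threshold (log2 change -1.61 ± 0.69, adjusted p = 0.063), and the 2 Day 7 cultures were far apart. Its fall over the whole span passed the threshold (-3.95 ± 0.77). With every barcode *Mylpf* was at 63.3 and 13.8 CPM at Day 7 and at 16.7 and 15.96 CPM at Day 10, which lay above Day 7 B, and its log2 change over the whole span was -2.56 and still called. *Myl1* and *Myl4*, the fast and the embryonic and atrial alkali light chains, likewise fell to Day 10, by 5.39 ± 0.71 and 2.93 ± 0.52 on the log2 scale, and by 3.79 ± 0.49 and 2.06 ± 0.49 with every barcode. *Myl3*, the slow and ventricular alkali light chain, was one of 2 members that rose. It went from 0.399 and 0.455 CPM at Day 2 to 1.09 and 1.13 CPM at Day 7 and 1.09 and 1.24 CPM at Day 10, a log2 change of 1.71 ± 0.15. *Myl2*, the slow and ventricular regulatory light chain, did not exceed 0.297 CPM in any library.

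Among the thin filament genes, *Actc1* (ENSMUSG00000068614, chr2:114047282-114053548 on GRCm38) was at 223 and 160 CPM at Day 2, at 17.9 and 5.52 CPM at Day 7 and at 0.184 and 2.73 CPM at Day 10. Its log2 change to Day 10 was -6.82 ± 0.87. With every barcode *Actc1* was at 4.41 and 4.80 CPM at Day 10 and its log2 change was -5.02, still called. The changes of *Ttn*, *Mybpc1* and *Neb* were -6.74 ± 0.23, -6.68 ± 0.47 and -6.46 ± 0.48, and -5.74, -4.88 and -5.81 with every barcode. *Acta1* (ENSMUSG00000031972, chr8:123891769-123894751 on GRCm38) moved less, from 56.6 and 46.3 CPM to 38.8 and 19.8 CPM and then 15.2 and 18.5 CPM. Its difference at Day 7 missed the threshold (-0.53 ± 0.25, adjusted p = 0.089), and it fell over the whole span by 1.35 ± 0.26 on the log2 scale, a call lost with every barcode (-0.49, adjusted p = 0.085). *Ttn* itself, the giant spring from Z-disc to M-line, was at 126 and 95.5 CPM, 9.22 and 9.75 CPM, and 0.634 and 1.11 CPM.

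All 7 troponin genes were called lower at Day 10 than at Day 2, where 38.2% of all genes were lower (77.3% in either direction). The slow forms *Tnnt1* and *Tnnc1* fell from 130 and 115 CPM to 2.29 and 3.92 CPM and from 107 and 71.9 CPM to 2.14 and 5.72 CPM. The slow inhibitory subunit *Tnni1* fell from 40.2 and 32.5 CPM to 1.43 and 3.36 CPM. With every barcode the Day 10 levels were 3.65 and 4.95 CPM for *Tnnt1*, 7.14 and 8.24 CPM for *Tnnc1* and 3.60 and 4.42 CPM for *Tnni1*, and all 7 stayed called. The fast forms of the tropomyosin-binding and inhibitory subunits changed less, *Tnnt3* from 21.1 and 20.7 CPM to 5.70 and 7.78 CPM and *Tnni2* from 8.62 and 7.72 CPM to 2.48 and 3.02 CPM. The calcium-binding fast form *Tnnc2* went from 35.3 and 27.7 CPM to 0.204 and 2.06 CPM, and fell by 4.58 ± 0.90 on the log2 scale. With every barcode *Tnnc2* was at 2.94 and 3.97 CPM at Day 10, a log2 change of -2.85 that was still called.

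At the Z-disc, *Actn2* fell by 5.48 ± 0.48 on the log2 scale to Day 10, from 8.21 and 6.44 CPM to 0.0461 and 0.236 CPM. With every barcode *Actn2* was at 0.337 and 0.607 CPM at Day 10 and fell by 3.72 ± 0.42. *Des*, the intermediate filament desmin (ENSMUSG00000026208, chr1:75360329-75368579 on GRCm38), was the one member not called over the whole span. It stood at 33.8 and 25.3 CPM at Day 2, 17.8 and 14.6 CPM at Day 7 and 18.0 and 21.1 CPM at Day 10 (log2 change to Day 10 -0.34 ± 0.14, adjusted p = 0.053). *Ldb3* (ENSMUSG00000021798, chr14:34526603-34588682 on GRCm38) rose in both steps, from 0.851 and 0.646 CPM to 1.28 and 1.17 CPM and then 1.69 and 1.74 CPM, a log2 change of 1.45 ± 0.16, and with every barcode its second step was not called (0.23, adjusted p = 0.18). *Tcap*, which joins titin ends at the Z-disc, was at 1.68 and 0.961 CPM, 1.28 and 0.224 CPM, and 0.073 and 0.343 CPM, and passed the threshold only over the whole span. With every barcode *Tcap* was at 0.328 and 0.451 CPM at Day 10.

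The calcium handling genes were called lower at Day 10 than at Day 2 in all 7 cases, against 38.2% of all genes (77.3% in either direction). *Ryr1*, the calcium release channel, went from 3.13 and 2.66 CPM to 0.327 and 0.330 CPM (-2.88 ± 0.15). *Cacna1s*, the voltage sensor that opens it, went from 0.739 and 0.691 CPM to 0.0154 and 0.0343 CPM (-4.58 ± 0.39), and with every barcode to 0.123 and 0.0981 CPM (-2.37 ± 0.36). Its gamma subunit *Cacng1*, the calcium pump *Atp2a1* and the pump's inhibitor *Sln* fell by 4.44 ± 0.78, 5.14 ± 0.27 and 4.11 ± 0.91 on the log2 scale, and by 2.96 ± 0.54, 3.72 ± 0.28 and 2.63 ± 0.59 with every barcode. Of the calsequestrins, which buffer calcium in the store, the cardiac form *Casq2* fell by 4.08 ± 0.36 (3.11 ± 0.38 with every barcode) and the skeletal form *Casq1* by 2.10 ± 0.16. Myoglobin (*Mb*) was at 3.32 and 2.52 CPM at Day 2, at 3.27 and 0.693 CPM at Day 7 and at 0.131 and 0.570 CPM at Day 10. With every barcode *Mb* was at 3.21 and 0.785 CPM at Day 7 and at 0.313 and 0.831 CPM at Day 10. Muscle creatine kinase (*Ckm*) stayed at or under 0.158 CPM in all 6 libraries. The acetylcholine receptor subunit *Chrna1* fell by 4.35 ± 0.42 (3.49 ± 0.40 with every barcode), and *Chrnd* had no UMI in the cells of Day 10 A, which allows up to 3 UMIs of 260245417. Its 11 UMIs among all deposited barcodes of that library were in gate barcodes that the cell filter had dropped.

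A set of 60 further sarcomere, triad and end-plate genes that are no members was read beside the 40. Of the 57 tested, 35 were called lower and 10 higher at Day 10 than at Day 2, with a median log2 change of -1.36, beside the 38.2% lower and 39% higher of all genes and their median of 0.0013. The 4 with the largest changes were *Trdn*, which ties calsequestrin to the release channel (-6.31 ± 0.64), the myosin methyltransferase gene *Smyd1* (-6.07 ± 0.29), the embryonic acetylcholine receptor subunit *Chrng* (-5.84 ± 0.60) and the thin filament nucleator *Lmod3* (-5.38 ± 0.48).

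The cells that held the members were found with a myogenic gate of genes that are no members, which took cells with at least 2 UMIs in all of *Myod1*, *Myog*, *Myf5*, *Myf6*, *Mymk*, *Mymx*, *Cdh15* and *Pax7*. It held 395 and 507 cells at Day 2, then 55 and 34 at Day 7, with 10 and 27 at Day 10. These were 4.18% (95% exact binomial interval 3.79 to 4.60) and 3.08% (2.82 to 3.35) of the cells at Day 2, 0.408% (0.307 to 0.531) and 0.275% (0.191 to 0.385) at Day 7, and 0.0963% (0.0462 to 0.177) and 0.271% (0.179 to 0.395) at Day 10. Intervals and limits on counts cover counting error only. With each cell thinned to 1000 UMIs, the shares were 1.68% and 1.0% at Day 2, then 0.148% and 0.0810% at Day 7, and 0.0098% and 0.0305% at Day 10, after 120, 205 and 121 shallower cells of Day 2 A, Day 10 A and Day 10 B were left out. Both Day 2 shares lay above all later ones. Day 10 B (0.271%) lay close to Day 7 B (0.275%), but below both Day 7 cultures when thinned. Of the Day 10 gate cells, 9 of 10 and 19 of 27 held under 1% of their UMIs in the members. Their gate genes stood at 57.2 and 49.7 CPM, against 1539 CPM in the other cell of A and 1608 CPM in the others of B. At Day 10 the gate therefore need not count muscle cells alone.

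At Day 2 the gate cells held 94.8% and 89.5% of all member UMIs. The share was 78.9% and 39.0% at Day 7 and 3.16% and 30.8% at Day 10. At Day 2 the gate held over 90% of the UMIs of 27 and 21 members, among them *Ttn* (96.0% and 92.5%), *Tnnc2* (98.8% and 93.5%) and *Actc1* (96.7% and 90.7%). A few members were held elsewhere from the start, with *Casq1* at 13.1% and 9.42% in gate cells, *Myl3* at 4.88% and 0%, and *Myl2* at 1.64% and 2.78%. By Day 10, the UMIs of *Acta1* lay 0.253% and 22.3% in gate cells, those of *Des* 1.16% and 3.97% and those of *Ldb3* 0.682% and 1.97%. With every barcode these Day 10 shares were 23.2% and 22.7% for *Acta1*, 9.42% and 8.06% for *Des*, and 4.79% and 5.35% for *Ldb3*.

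**Figure D2:**
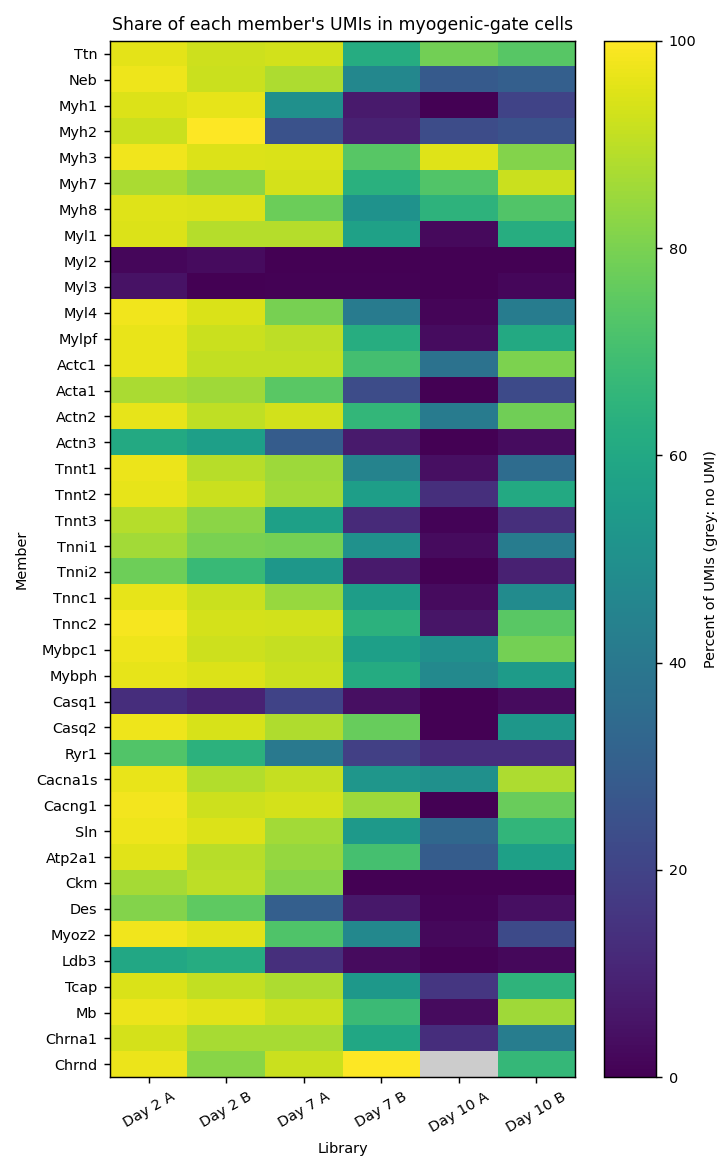
Share of the UMIs of each member that lay in myogenic-gate cells, by library, in percent (grey where a member had no UMI). The Day 2 columns are near 100% for most members, the Day 7 columns differ between replicates, and Day 10 A is low for most members.

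Against all other cells of the same library, 38 of the 40 members were higher in gate cells at Day 2, where 18.1% of all genes were called higher (36.5% in either direction), and none was lower. At Day 7 the count was also 38, against 5.68% of all genes higher and 10.3% lower (15.9% in all), and at Day 10 it was 33, against 1.73% higher and 5.02% lower (6.75% in all). *Myl2* and *Myl3* were not called on any day, and at Day 10 *Myh1*, *Actn3*, *Casq1*, *Ckm* and *Ldb3* also missed the threshold. The members' median log2 difference was 8.36 at Day 2, 8.87 at Day 7 and 6.94 at Day 10. With every barcode it was 7.72, 8.45 and 8.39, with 38, 37 and 35 members higher, so the smaller median at Day 10 held with the cell filter and not without it. That fit took its spread almost wholly from all genes together (336 prior against 3 residual degrees of freedom), and with a spread robust to outlying genes the Day 10 count was 18, while at Day 2 it was 37 and at Day 7 33. Without Day 10 B the Day 10 differences of *Tnni2*, *Casq2* and *Cacng1* turned negative, and without Day 7 A that of *Ckm* at Day 7. In each case the gate cells of the culture that remained held no UMI of the gene, so the sign shows no direction. Of the further genes, 44 were higher and 4 lower in gate cells at Day 2.

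The level within gate cells was taken as CPM of their own UMIs, and it still depends on how many gate cells held the members. Summed over members it was 19253 and 17124 CPM at Day 2, 33886 and 13252 CPM at Day 7, and 1130 and 6674 CPM at Day 10. With every deposited barcode it was 14285 and 12643 CPM, 32066 and 8213 CPM, and 11841 and 9697 CPM. Day 7 B then lay below both Day 10 cultures. The gate cells with under 1% of their UMIs in the members made up 57.3% and 67.5% of gate UMIs at Day 2, then 53.0% and 83.2% at Day 7, with 98.2% and 86.4% by Day 10. At Day 7 these were 25 of 55 and 22 of 34 gate cells, with a median of 34367 and 23616 UMIs and of 0.0042% and 0.0053% in the members. The other gate cells, chosen by the same values and so given with no test, held the members at 41830 and 46999 CPM in the Day 2 cultures, then at 70842 and 77725 CPM in those of Day 7. By Day 10 they were 1 cell at 59254 CPM and 8 cells at 48942 CPM. Among the 34 members tested within the gate, 7 rose from Day 2 to Day 7 and none fell, where 18.3% of all genes were called higher and 16% lower (34.2% in all). The 7 were *Mb* (log2 change 2.48 ± 0.64), *Tcap* (2.24 ± 0.54), *Cacna1s* (1.59 ± 0.24), *Cacng1* (1.5 ± 0.49), *Chrnd* (1.42 ± 0.28), *Myh7* (1.28 ± 0.25) and *Ldb3* (1.19 ± 0.35). Their share of the members tested is close to that of all genes. *Mb* stores oxygen, *Cacna1s* and *Cacng1* belong to the voltage sensor, and *Chrnd* is an end-plate receptor subunit. *Mb* stood at 55.2 and 50.2 CPM in the gate cells of Day 2 and at 417 and 132 CPM in those of Day 7. *Cacna1s* was at 12.2 and 12.8 CPM and then at 41.3 and 27.7 CPM, and *Myh7* at 24.0 and 30.7 CPM and then at 49.3 and 87.2 CPM. *Cacna1s*, *Chrnd* and *Myh7* were the 3 that were also called with a robust spread, by limma voom and by DESeq2. With a gate of at least 4 UMIs, 31 members were called in either direction. The share of all genes called under that setting was not taken, so the count of 31 cannot be set against it. The count of 7 moved between 1 and 18 when 1 library was left out, with 1 without Day 2 A, 2 without Day 2 B, 4 without Day 7 A, 18 without Day 7 B, and 16 without either Day 10 library.

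Other members were not called, and several lay far apart between the Day 7 cultures. *Acta1* was at 847 and 827 CPM in the Day 2 gate cells and at 4011 and 1274 CPM in those of Day 7 (log2 change 1.72 ± 0.97, adjusted p = 0.20). *Mylpf* was at 2154 and 1815 CPM and then at 6359 and 1710 CPM. *Actc1* had values of 3687 and 3022 CPM and then of 2257 and 1077 CPM, lower in both Day 7 cultures and not called (-0.95 ± 0.70, adjusted p = 0.32). *Ttn* was at 2065 and 1844 CPM and then at 1190 and 1671 CPM, and *Myh3* at 552 and 545 CPM and then at 554 and 856 CPM. With every barcode *Ttn* was at 1470 and 1467 CPM and then at 1104 and 698 CPM. *Myh3* was then at 404 and 440 CPM at Day 2 and at 562 and 365 CPM at Day 7, so that Day 7 B lay below both Day 2 cultures.

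At Day 10, 17 of the 34 members were called lower within the gate than at Day 7, where 4.23% of all genes were lower (7.72% in either direction), and 16 lower than at Day 2, against 22% (45%). None was higher in either comparison (3.49% and 23% of all genes). These 2 counts rest on the 10 and 27 gate cells of Day 10. Of the gate cells, 9 of 10 in Day 10 A and 19 of 27 in Day 10 B held under 1% of their UMIs in the members, with a median of 0.0030% and 0.0019%. Those cells were deep (median 39944 and 45665 UMIs) and had 25 and 45 UMIs of the gate genes in all. The gate cells of Day 10 also held *Pth1r*, a receptor gene of cartilage, at 350 and 265 CPM, near the 325 and 326 CPM of the cells with chondrocyte markers and above the 26.2 and 21.3 CPM of the Day 2 gate cells, and the part of such cells in the result was not tested. The cell filter also bears on Day 10. It drops barcodes at or over 7500 genes, and 10 gate barcodes dropped for that in Day 10 A held 19081 member UMIs, more than the 15893 in all 10385 cells kept. In Day 10 B 8 such barcodes held 12311. The dropped gate barcodes had a median of 114184 and 119223 UMIs, against 38217.5 and 39808 in the gate cells kept. Whether any of them hold more than 1 cell was not tested. With every deposited barcode kept, the gate held 44.7% and 43.6% of the member UMIs at Day 10, at 11841 and 9697 CPM, and the count of members lower at Day 10 than at Day 7 was 1 in place of 17, and than at Day 2 6 in place of 16. Of those 16 calls 5 were kept, for *Ttn*, *Neb*, *Myh3*, *Actc1* and *Tnnt1*, while *Ldb3*, *Myh7* and *Tcap* were then called higher than at Day 2, and the median log2 change was 0.19 in place of -1.49. Without Day 7 A the first of these counts was 8, and without Day 7 B it was 28.

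**Figure D3:**
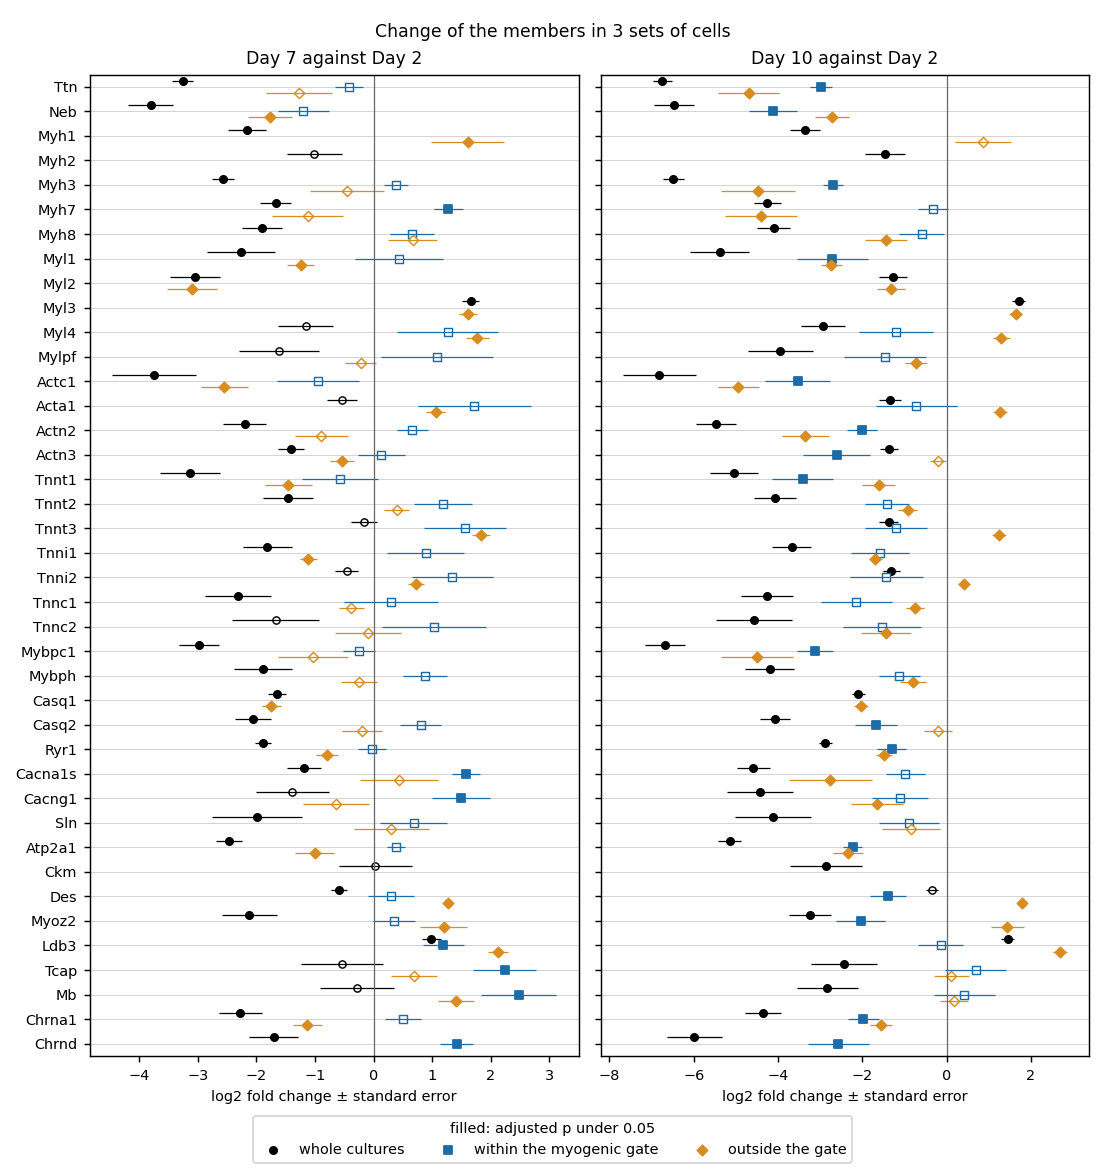
Log2 fold change with its standard error of each member from Day 2 to Day 7 and from Day 2 to Day 10, in whole cultures, within myogenic-gate cells and outside the gate, with filled symbols for an adjusted p under 0.05. At Day 7 the whole-culture values lie mostly below 0 while the within-gate values lie mostly above it, and *Des*, *Ldb3*, *Myl3* and *Acta1* lie above 0 outside the gate on both days.

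Member-rich cells, those with at least 1% of their UMIs in the 40 genes, gave a view that does not depend on the gate, with a limit chosen after the values were seen. They numbered 193 and 137 at Day 2, then 82 and 60 at Day 7, with 2 and 17 left at Day 10. With a limit of 0.5% they were 233 and 324, 89 and 82, and 5 and 19, which turned the order of the Day 2 libraries. With a limit of 2% they were 144 and 85, 54 and 41, and 2 and 14. The barcodes dropped by the cell filter held 3 and 6 more at Day 10. The highest share in a single cell was 14.9% of its UMIs, in Day 10 A. Of the 491 in all, 356 were gate cells and 135 were not. In Day 7 A and Day 7 B, 52 and 48 member-rich cells lay outside the gate, with a median of 1541 and 1230 UMIs, and 23 and 14 of them had 1 UMI of a gate gene and 29 and 34 had none. The 30 and 12 member-rich gate cells of the same libraries had a median of 8428.5 and 1345.5 UMIs, so the 2 kinds lay apart in depth in Day 7 A and close together in Day 7 B. A few cells carried much of the signal. At Day 7 A, 7 cells held 50% of all member UMIs, and in Day 7 B 69 cells did, against 47 and 27 at Day 2 and 263 and 70 at Day 10.

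Fusion-stage gate cells, those with a UMI of *Myog*, *Mymk* or *Mymx*, were set against the earlier gate cells, which had none, at Day 2. There were 318 and 414 fusion-stage cells and 77 and 93 earlier ones. Of the 36 members tested, 35 were higher at the fusion stage and none lower, where 9.83% of all genes were called higher and 9.73% lower (19.6% in all). The exception was *Casq1*, with a log2 difference of 0.71 ± 0.60 and an adjusted p of 0.47. The members differed in how much of them was found in gate cells with no UMI of the 3 genes, which can also be cells whose *Myog* was not detected. Earlier cells held *Tnnt1* at 732 and 669 CPM, against 2548 and 2752 CPM at the fusion stage, a 3.75-fold difference over both libraries, and cells outside the gate held it at 4.23 and 13.2 CPM. *Des* stood at 142 and 105 CPM in earlier cells and at 6.59 and 6.55 CPM outside the gate. It was 4.39-fold below the fusion stage, *Mybpc1* 3.0-fold below and *Actn3* 1.98-fold below. With every barcode 32 of 34 members were higher, and *Des* (adjusted p = 0.097) and *Actn3* (0.0501) were not called. *Ttn* and *Actc1* were intermediate, at 177 and 106 CPM and at 160 and 77.8 CPM in earlier cells, 18.1-fold and 37.6-fold below.

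At the other end, 8 members with more than 3 UMIs at the fusion stage had no UMI in the earlier cells of either library. *Myl2* had none there either, with 2 UMIs at the fusion stage. With the limit of 3 counts over both libraries, *Casq2* was at least 169-fold higher at the fusion stage, *Mb* at least 121-fold, *Myoz2* at least 112-fold, *Tcap* at least 53.1-fold, *Cacna1s* at least 28.3-fold, *Ldb3* at least 19.5-fold, *Myh2* at least 4.65-fold and *Ckm* at least 4.09-fold. *Myl4* had 6 UMIs in earlier cells and 16131 at the fusion stage (892-fold), and *Acta1* 11 and 17207 (519-fold), where the levels in earlier cells (0.762 and 1.60 CPM, 3.43 and 0.802 CPM) were below those outside the gate (1.22 and 2.09 CPM, 7.64 and 6.99 CPM). *Myh3* had 3 UMIs and 11273. Of the further genes, 40 of the 46 tested were also higher at the fusion stage. Gene by gene the order differed within the same structure, as for the troponins, where *Tnnt1* was 3.75-fold higher at the fusion stage, *Tnnt3* 36.6-fold and *Tnnt2* 166-fold. The fold of *Tnnt2* rests on 21 UMIs in earlier cells, at 7.24 CPM in A and 0.802 CPM in B, and so differed widely between the libraries.

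Early and later isoforms were compared as the share of the later form in the UMIs of a pair, across libraries, in gate cells. Early and later name the order set for each pair. *Tnnt1* with *Tnnt3*, *Tnni1* with *Tnni2* and *Tnnc1* with *Tnnc2* are slow and fast forms. A larger share of the fast form is not by itself a later stage. The share of *Acta1* in the alpha-actin pair was 18.7% (95% exact binomial interval 18.4 to 19.0) and 21.5% (21.0 to 21.9) at Day 2, and 64.0% (63.0 to 65.0) and 54.2% (51.8 to 56.6) at Day 7. At Day 10 it was 35.7% (18.6 to 55.9) and 65.4% (62.9 to 67.8), where Day 10 A had only 18 UMIs of *Actc1* and 10 of *Acta1*. With every deposited barcode, which returns the 10 gate barcodes dropped there for too many genes, the Day 10 share was 63.1% (61.6 to 64.7) in A, from 1425 and 2441 UMIs, and 61.6% (60.1 to 63.2) in B, and the Day 7 share was 63.3% and 56.8%. In member-rich cells the same share was 19.9% and 23.9%, 64.3% and 54.0%, and 48.8% and 64.7%. The share of fast *Tnnt3* beside slow *Tnnt1* went the same way, with 13.0% and 14.3% at Day 2, then 41.4% and 39.4% at Day 7, and 34.2% and 42.7% at Day 10. Fast *Tnnc2* beside *Tnnc1* was at 25.3% and 28.2%, 39.8% and 29.9%, and 15.8% and 35.6%. With every barcode the Day 10 shares were 56.5% and 44.2% for *Tnnt3* and 35.4% and 39.5% for *Tnnc2*. These were the 3 of 12 pairs whose later form had a larger share in both Day 7 cultures than in both Day 2 cultures. For *Tnnc2* the intervals of Day 7 B (27.1 to 32.9) and Day 2 B (27.5 to 28.9) overlapped. With every barcode *Casq1* beside *Casq2* was another (4.92% and 4.93%, then 6.15% and 8.0%), with intervals that overlap.

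The other 9 pairs did not have a larger later share in both Day 7 cultures. *Myl1* beside the embryonic *Myl4* went the other way, from 49.8% and 52.2% at Day 2 to 37.4% and 34.9% at Day 7, with 21.4% (4.66 to 50.8, from 3 UMIs of *Myl1* and 11 of *Myl4*) and 25.7% at Day 10. With every barcode it was 33.3% and 36.1% at Day 7 and 33.2% and 26.7% at Day 10, so Day 10 A did not lie below Day 7 A beyond the intervals. Of the myosin heavy chains, *Myh3* had most UMIs of each pair in every library. *Myh8* made up 5.50% and 6.07% of its pair with *Myh3* at Day 2 and 9.47% and 4.48% at Day 7, and at Day 10 36.1% in A, from 39 UMIs of *Myh3* and 22 of *Myh8*, and 9.20% in B, from 79 and 8. Both Day 10 values lay above both Day 2 values, but with every barcode they were 13.6% and 4.56%, against 5.70% and 8.65% at Day 2. The adult *Myh1* made up 1.38% and 1.57% of its pair with *Myh3* at Day 2 and 1.19% and 0.162% at Day 7, and *Myh2* 0.346% and 0.407% and then 0.240% and 0.162%. At Day 10 *Myh1* was at 0% and 1.25% and *Myh2* at 7.14% and 1.25%, from at most 3 UMIs in a library, and with every barcode both were at 0.822% and 0.227%. *Actn3* beside *Actn2* was at 8.61% and 9.74%, 7.46% and 3.23%, and 0% (0 to 52.2, from 5 UMIs of *Actn2*) and 6.52%. With every barcode its Day 10 share was 16.9% in A, from 21 UMIs of *Actn3*, above both Day 2 cultures (8.46% and 9.42%), and 5.18% in B. *Tnnt3* beside *Tnnt2* was at 38.5% and 41.2% at Day 2 and on either side of that at Day 7 (50.3% and 34.3%), and *Tnni2* beside *Tnni1* likewise (16.3% and 16.7%, then 24.8% and 10.1%). *Casq1* beside *Casq2* was at 4.12% and 4.01% at Day 2 and on either side of that at Day 7 (7.94% and 3.37%). Day 10 A had no UMI of either, and Day 10 B was at 5.41%. The adult receptor subunit *Chrne* beside *Chrng* was at 0% in 5 of the 6 libraries, with 1 UMI in Day 7 B (1.43%). No test was made over 2 libraries a day, and the intervals above cover counting error only.

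**Figure D4:**
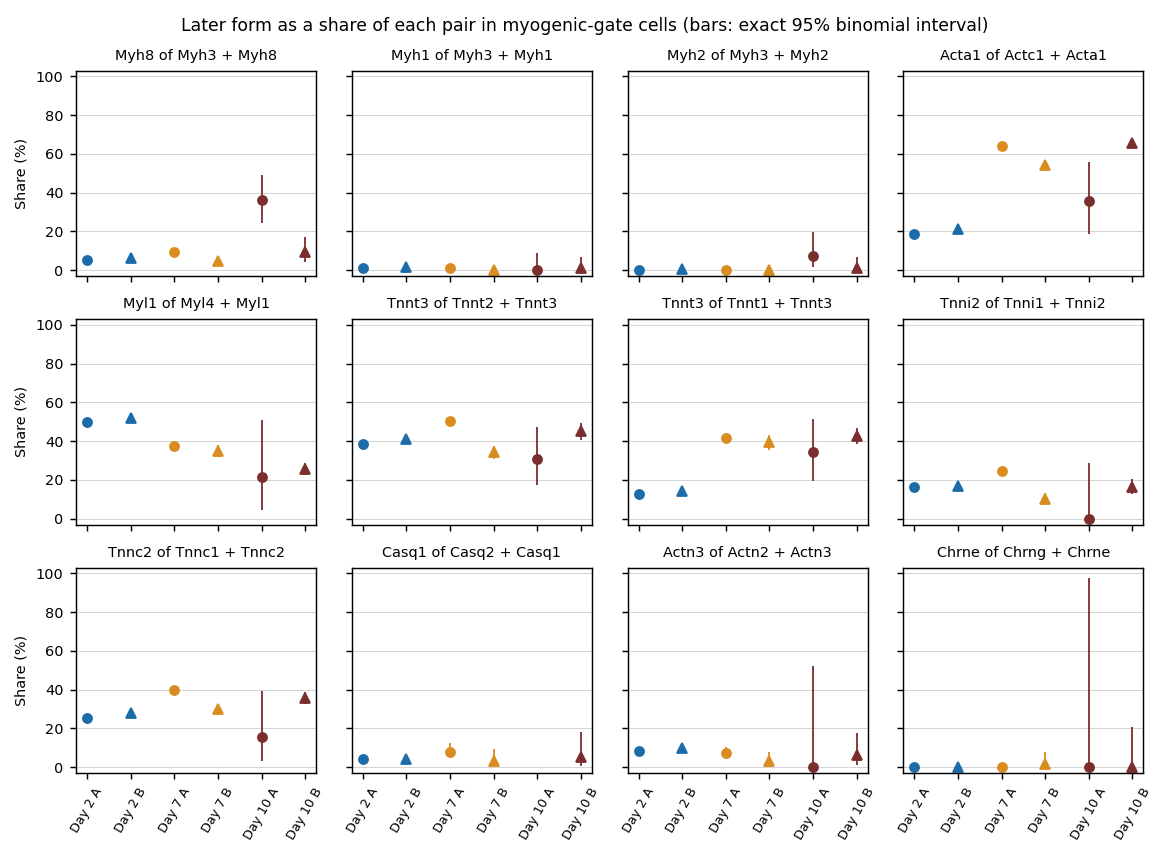
Share of the later form in each of 12 isoform pairs in myogenic-gate cells, in percent of the UMIs of the pair, 1 point per library with its exact 95% binomial interval. *Acta1* and *Tnnt3* (beside *Tnnt1*) are higher in both Day 7 libraries than in both Day 2 libraries, *Myl1* is lower, and the Day 10 A intervals are wide.

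Levels outside the gate can include free RNA of muscle cells, and also muscle cells that the gate missed. The share of neither was estimated. Member-rich cells outside the gate held 2.73% of all member UMIs in Day 7 A and 6.01% in Day 7 B. From Day 2 to Day 10, 23 of the 37 tested fell and 8 rose, where 38.2% of all genes were called lower and 39% higher (77.2% in all). From Day 2 to Day 7, 11 fell and 10 rose, against 34.4% and 35.6% (70%), and from Day 7 to Day 10, 15 fell and 3 rose, against 26% and 26.3% (52.3%), a count of 18 that was 12 without Day 7 B and 9 without Day 10 A. The 8 that rose to Day 10 were *Ldb3* (log2 change 2.69 ± 0.17), *Des* (1.78 ± 0.08), *Myl3* (1.64 ± 0.15), *Myoz2* (1.43 ± 0.39), *Myl4* (1.30 ± 0.20), *Acta1* (1.27 ± 0.17), *Tnnt3* (1.24 ± 0.16) and *Tnni2* (0.42 ± 0.14). *Des* went from 6.59 and 6.55 CPM outside the gate at Day 2 to 12.5 and 13.7 CPM at Day 7 and 17.8 and 20.3 CPM at Day 10. *Ldb3* went from 0.362 and 0.260 CPM to 1.12 and 1.14 CPM and 1.68 and 1.72 CPM, and *Acta1* from 7.64 and 6.99 CPM to 9.95 and 15.3 CPM and 15.2 and 14.5 CPM. *Actc1* ran against them, from 7.83 and 15.7 CPM to 1.66 and 1.65 CPM and 0.115 and 0.543 CPM (-4.94 ± 0.49). In cells with chondrocyte markers *Actc1* was at 3.74 and 9.15 CPM, 1.56 and 1.37 CPM, and 0.127 and 0.507 CPM, so that its level went down there too. The part of free RNA, or of muscle cells missed by the gate, in this fall and in those of the other members was not tested. *Des* in the same cells was at 1.31 and 2.63 CPM at Day 2 and at 3.88 and 6.17 CPM at Day 10.

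A class of contractile mesenchyme was set as cells outside the gate with at least 2 UMIs of *Cnn1*, the actin-binding calponin of smooth muscle. Among cells that passed the filter, it held most UMIs of *Des*, *Acta1* and *Ldb3* at Day 10. It made up 27.1% and 15.5% of cells at Day 2, then 12.5% and 13.5% at Day 7, with 24.7% and 22.8% at Day 10. Its share of member UMIs was 2.86% and 2.97% at Day 2, then 8.55% and 25.4% at Day 7, with 61.1% and 39.2% at Day 10. With every barcode the gate held 44.7% and 43.6% at Day 10, which leaves under 61.1% for this class in A. The share of the class with every barcode was not taken. Its cells were deep, with a median of 38861 and 38538 UMIs at Day 10, against 19689 and 16846 in cells with chondrocyte markers. Summed over members, its Day 10 level was 94.9 and 97.2 CPM, beside 61.1 and 97.4 CPM in whole cultures. The share in B therefore went with its share of UMIs. Against all remaining cells outside the gate, 5 members were higher and 11 lower in *Cnn1* cells at Day 2, where 22.6% of all genes were called higher and 27.6% lower (50.2% in all). At Day 7, 6 were higher and 12 lower (30.3% and 32.5% of all genes, 62.8% in all), and at Day 10, 6 were higher and 7 lower (28.8% and 27%, 55.8% in all). *Acta1*, *Des* and *Ldb3* were higher on all 3 days. *Des* in *Cnn1* cells was at 12.4 and 9.60 CPM at Day 2, 33.4 and 35.6 CPM at Day 7 and 36.8 and 40.1 CPM at Day 10, with a log2 difference from the remaining cells of 1.96 ± 0.32, 3.13 ± 0.28 and 2.69 ± 0.26. *Acta1* was at 14.2 and 12.1 CPM, 21.7 and 26.0 CPM, and 31.9 and 28.7 CPM (2.27 ± 0.25, 1.66 ± 0.21 and 2.75 ± 0.22). *Ldb3* was at 0.592 and 0.306 CPM, 2.70 and 2.66 CPM, and 3.44 and 3.28 CPM (1.32 ± 0.35, 2.51 ± 0.23 and 2.52 ± 0.21). At Day 10, *Cnn1* cells held 80.6% and 74.9% of all *Des* UMIs, 82.5% and 60.9% of *Acta1* and 80.0% and 74.0% of *Ldb3*. These are shares of the cells that passed the filter. With every barcode the gate held 23.2% and 22.7% of the *Acta1* UMIs, which leaves under 82.5% for *Cnn1* cells in A. *Casq1* was higher in *Cnn1* cells at Day 2 (2.25 ± 0.20) and at Day 7 (2.02 ± 0.27), and at Day 10 it was at 0.274 and 0.316 CPM there (0.11 ± 0.27, adjusted p = 0.76). *Ttn* ran the other way, lower in *Cnn1* cells at Day 2 and Day 7 (-2.38 ± 0.19 and -2.63 ± 0.28). At Day 2 *Ttn* was at 1.67 and 1.82 CPM in *Cnn1* cells and at 2.37 and 4.50 CPM with chondrocyte markers. In cells that met no marker limit it was at 42.2 and 27.4 CPM at Day 2 and at 2.50 and 42.0 CPM at Day 7. The part of muscle cells missed by the gate in these values was not tested.

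Outside the gate the alpha-actin pair was also divided by day. *Acta1* made up 49.4% and 30.8% of the pair at Day 2, then 85.7% and 90.3% at Day 7, with 99.2% and 96.4% by Day 10. In the remaining cells, which met none of the marker limits and had a median of 1243 and 1494 UMIs at Day 7, *Acta1* stood at 31.9 and 51.6 CPM at Day 7, above the *Cnn1* cells. Summed over members these cells were at 270 and 266 CPM, against 91.4 and 102 CPM in the *Cnn1* cells. *Actc1* averaged 17.3 CPM in them and 0.584 CPM in the *Cnn1* cells. Whether they include muscle cells that the gate missed was not tested.

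Other members had their own places outside the gate. Cells with chondrocyte markers had at least 3 UMIs of *Acan*, *Col9a1* and *Matn4*. *Myl3* in them was at 0.409 and 0.605 CPM at Day 2, 1.35 and 1.44 CPM at Day 7 and 1.66 and 1.84 CPM at Day 10. It lay there above every other class outside the gate in each Day 7 and Day 10 library. In the few gate cells of Day 10 its mean was 3.51 CPM. *Myl3* was lower in *Cnn1* cells than in the remaining cells outside the gate at Day 7 and Day 10 (-0.95 ± 0.17 and -1.25 ± 0.16). On GRCm38 *Myl3* (chr9:110741861-110769798) is overlapped on the other strand by *Pth1r* (chr9:110722085-110747145). The shared stretch lies at the 5′ end of both genes, whereas these libraries count 3′ ends. *Pth1r* in cells with chondrocyte markers was at 65.1 and 69.0 CPM, 112 and 105 CPM, and 325 and 326 CPM. Whether the counting kept the strands apart is not given in the sources used here, and the part of *Pth1r* reads in the *Myl3* values was not tested. *Tnni2*, chosen here after its values were seen, was at 12.1 and 130 CPM at Day 2, 30.4 and 52.6 CPM at Day 7, and 52.6 and 51.8 CPM at Day 10 in cells with macrophage markers (at least 5 UMIs of 7 genes, *Csf1r* and *C1qa* among them), which numbered 24 and 21, 35 and 53, and 142 and 202. In the *Cnn1* cells of the same libraries it lay between 1.17 and 2.54 CPM. These cells held 26.6% and 33.5% of all *Tnni2* UMIs at Day 10.

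**Figure D5:**
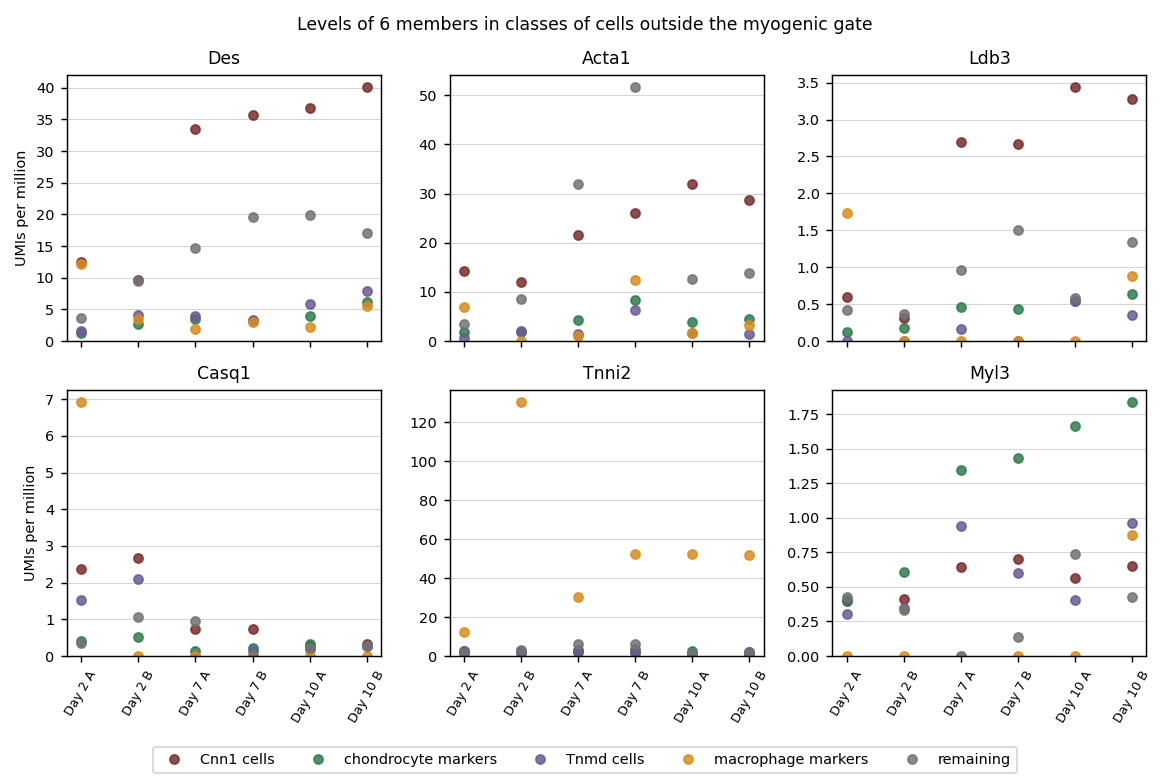
Level of 6 members, in CPM, in 5 classes of cells outside the myogenic gate, 1 point per class and library. *Des* in all libraries, *Acta1* at Day 2 and Day 10 and *Ldb3* at Day 7 and Day 10 are highest in *Cnn1* cells, *Tnni2* in macrophage-marker cells and *Myl3*, from Day 7, in chondrocyte-marker cells, while the macrophage-marker points of Day 2 rest on few UMIs (4 for *Casq1* in Day 2 A).

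The test of whether the gate difference itself changed asked for each member if gate cells and other cells grew apart. From Day 2 to Day 7 the difference widened for 13 members and narrowed for 4, where 4.02% of all genes were called higher and 7.51% lower (11.5% in all) and the median of all genes was -0.26. From Day 2 to Day 10 it widened for 4 and narrowed for 16, against 3.63% and 9.4% (13%), with a median of all genes of -0.43. These counts were not steady. Under a robust spread they were 7 and 6, and by limma voom 2 and 7, and without Day 2 B the first was 5 and without Day 10 A the second was 12. With every barcode they were 2 and 4, all of them wider and none narrower, and the median to Day 10 was 1.07 in place of -0.71. Of the 20 members called to Day 10 only *Myh7* and *Actc1* were called again in the same direction. Called by each of 4 methods were *Casq1*, whose difference widened to Day 7 (3.04 ± 0.68), *Myh7*, whose difference widened to Day 10 (3.72 ± 0.73), and *Ldb3* and *Myoz2*, whose differences narrowed to Day 10 (-3.09 ± 0.58 and -3.85 ± 0.48). With every barcode those of *Ldb3* and *Myoz2* were -1.03 and -2.26 and not called (adjusted p = 0.29 and 0.13). *Ldb3* was at 8.75 and 8.32 CPM in gate cells at Day 2 and at 6.74 and 7.63 CPM at Day 10, but with every barcode at 6.84 and 6.77 CPM and then at 20.0 and 18.1 CPM. Outside the gate it rose in both. *Myh7* averaged 27.4 CPM in gate cells at Day 2 and 20.0 CPM at Day 10, and 0.271 and 0.0101 CPM outside the gate. With the filter its difference therefore widened while its level fell in both, more steeply outside the gate. With every barcode *Myh7* was at 20.9 and 29.4 CPM in the gate at Day 2 and at 40.5 and 54.2 CPM at Day 10.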

How the data were processed

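Single-cell RNA was measured in 6 DID libraries, 2 cultures per day, with 10x Genomics 3′ chemistry. Per the labels and the submitters' processing notes, the authors aligned reads to GRCm38/mm10 with Cell Ranger 6.1.2 (STAR) and used Seurat 4.1.0, and they deposited filtered matrices of raw UMI counts per gene and barcode. The strand setting of the counting is not given in the sources used here.

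Cells were kept with over 800 (Day 2 A, Day 10) or 1000 UMIs (Day 2 B, Day 7), over 200 and under 7500 genes, and under the study's mitochondrial (25 to 40%) and ribosomal (35 to 40%) limits. No doublet caller was run. UMI counts were summed per library and class of cells, and sums were tested with edgeR 4.0.16 quasi-likelihood fits in R 4.3.3 (TMM, low-count filter, Benjamini-Hochberg over all genes tested, adjusted p under 0.05). The fits covered 18987 genes for whole cultures and 9568 within the gate. Cells are not replicates and each library counts once. Library depth was 178022112 to 260245417 UMIs. The script was tested on simulated data: of genes changed by 1 on the log2 scale, 79% were recovered for Day 7 against Day 2 in whole cultures (18616 genes) and 60% within the gate (9018 genes). There were 10 and 9 false calls. Both simulations used the same spread, near the common biological coefficient of variation of whole cultures (0.0689) and below that within the gate (0.139). The 60% therefore holds for a smaller spread than that of the data.

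The members and gene lists were chosen with earlier results of these data known. Genes were named by role and by rule, the further genes as the 4 with the largest called change. Alternatives were DESeq2 1.42.0, limma 3.58.1 voom, a robust spread, no filter, other gate limits, every deposited barcode and leaving out each library; voom, the robust spread and the other limits on member-rich cells were added after seeing the data. Positions are from GENCODE on GRCm38 and promoters from RefSeq.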

Additional observations from a re-analysis of the deposited data

Results flagged for a closer look

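For 17 members the difference between gate cells and other cells changed from Day 2 to Day 7 by the test of the change itself (log2 values, adjusted p from edgeR under 0.05). It widened by 1.02 for *Ttn*, 0.77 for *Myh3*, 2.37 for *Myh7*, 1.18 for *Myl1*, 0.77 for *Mylpf*, 1.21 for *Actc1*, 1.34 for *Actn2*, 1.69 for *Tnni1*, 3.04 for *Casq1*, 1.86 for *Cacng1*, 1.15 for *Atp2a1*, 1.39 for *Chrna1* and 3.51 for *Chrnd*. The change was -0.98 for *Myl4*, -0.81 for *Tnnt3*, -1.33 for *Des* and -1.17 for *Myoz2*.

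From Day 2 to Day 10 the same difference changed for 20 members. It widened by 1.40 for *Ttn*, 1.41 for *Myh3*, 3.72 for *Myh7* and 0.81 for *Actc1*. The change was -1.77 for *Neb*, -3.27 for *Myl4*, -1.79 for *Mylpf*, -2.90 for *Acta1*, -2.67 for *Actn3*, -2.45 for *Tnnt1*, -0.95 for *Tnnt2*, -2.90 for *Tnnt3*, -2.11 for *Tnni2*, -2.15 for *Tnnc1*, -0.97 for *Tnnc2*, -1.84 for *Casq2*, -3.45 for *Des*, -3.85 for *Myoz2*, -3.09 for *Ldb3* and -0.77 for *Chrna1*. With every deposited barcode only *Myh7* and *Actc1* of these 20 were called in the same direction, and the values were above 0 for *Mylpf* (1.47), *Tnnt2* (1.39), *Tnnc1* (0.60), *Tnnc2* (1.96) and *Chrna1* (1.03). Of the 17 to Day 7, *Tnni1* and *Casq1* were called again. *Ttn*, *Myh3*, *Myh7* and *Actc1*, whose difference widened to Day 10, had lower mean levels in filtered gate cells at Day 10 than at Day 2. Outside the gate their fall was steeper.

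Barcodes that did not pass the cell filter, which enter the comparisons above only where every deposited barcode is named, also held member UMIs. They held 91194 in Day 2 A, 31988 in Day 2 B, 38673 in Day 7 A, 14737 in Day 7 B, 27905 in Day 10 A and 22811 in Day 10 B, most of them in barcodes over the upper limit on genes.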

How the results depend on the processing

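Of 266 alternative values of the counts and shares, 225 kept to within their limits and 41 moved. Of 6048 alternative values of single members, 5351 kept direction and call, 672 lost the call and 25 reversed. The cause of these shifts was not tested. The share of all genes called was taken for the main fits only, so the alternative counts below stand without it.

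Members lower or higher between Day 7 and Day 10 in whole cultures (32) were 15 with a robust spread and 17 to 33 leaving out 1 library. Within the gate, Day 7 against Day 2 (7) gave 3 by DESeq2, 25 with no filter, 31 with a gate of 4 UMIs, 4 with a robust spread, 11 by voom and 1 to 18 leaving out 1 library. Day 10 against Day 7 (17) gave 35 with no filter, 1 with every barcode, 9 with a robust spread, 9 by voom and 8 to 28 leaving out 1 library. Day 10 against Day 2 (16) gave 30 with no filter, 9 with every barcode and 32 with a gate of 1 UMI. Outside the gate, Day 10 against Day 7 (18) gave 9 to 21 leaving out 1 library. Gate cells against others at Day 10 (33) gave 18 with a robust spread. The change of the gate difference to Day 7 (17) gave 4 by DESeq2, 2 with every barcode, 2 with a gate of 1 UMI, 29 with 4, 7 with a robust spread, 2 by voom and 5 to 24 leaving out 1 library, and to Day 10 (20) 4 by DESeq2, 4 with every barcode, 6 with a robust spread, 7 by voom and 12 to 21. The mean share of member UMIs in the gate at Day 10 was 44.2% with every barcode. Thinned, gate cells averaged 1.34%, 0.115% and 0.0202% of cells at Day 2, Day 7 and Day 10.

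Reversed log2 values were, within the gate to Day 10 with every barcode, 0.43 for *Des* and 0.26 for *Myoz2*. Against other cells, leaving out 1 library gave -4.64 (without Day 7 A) to 9.06 for *Ckm* at Day 7, and at Day 10, lowest without Day 10 B, -11.18 to 4.28 for *Tnni2*, -6.94 to 7.74 for *Casq2* and -4.89 to 9.31 for *Cacng1*. The gate cells that remained at these lowest values held no UMI of the gene, so the sign shows no direction. For the gate difference to Day 7 the reversed values were -0.41 for *Ttn*, -0.42 for *Myh3* and -0.16 for *Mylpf* with a gate of 1 UMI, 0.30 for *Myl4*, 0.85 for *Tnnt3* and 0.034 for *Des* with 4, and, leaving out 1 library, -0.037 (without Day 7 A) to 1.57 for *Mylpf* and -2.11 to 0.33 (without Day 7 B) for *Tnnt3*. To Day 10 they were -0.71 for *Ttn*, -0.34 for *Myh3* and -0.43 for *Actc1* with a gate of 1 UMI, 1.47 for *Mylpf*, 1.39 for *Tnnt2*, 0.60 for *Tnnc1*, 1.96 for *Tnnc2* and 1.03 for *Chrna1* with every barcode, and, leaving out 1 library, -0.24 (without Day 10 B) to 1.72 for *Actc1* and -4.46 to 0.20 (without Day 2 A) for *Tnnc2*. For *Tnnt1* in *Cnn1* cells at Day 2 the range was -1.75 to 0.074 (without Day 2 B).

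Replicate letters shared only a name, since the correlation of B minus A between days was -0.0164, -0.0574 and -0.00765 over 18987 genes. With the replicate as a block the counts were 28, 29 and 39 in whole cultures, 6, 13 and 16 within the gate, and 24, 21 and 31 outside it (Day 7 against Day 2, Day 10 against Day 7, Day 10 against Day 2). A gate of 4 UMIs was not run for the 4 Day 10 gate results, where too few cells remained. Day 10 gate results are limited by 10 and 27 cells.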
